A study of Mus musculus with 2 samples.

Results

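Distal intergenic peaks are the FLAG-HLF binding intervals that lie in the gaps between protein-coding genes, away from any gene end. A peak was taken as distal intergenic when its centre lay outside every coding gene of the mm10 RefSeq annotation, more than 20 kb and at most 100 kb from the nearest start or end coordinate of one. The rule used position alone, and it took 440 of the 3153 peaks in the deposited list. The other 2713 peaks comprised 1742 inside coding genes, 812 intergenic peaks at most 20 kb from a gene end and 159 intergenic peaks beyond 100 kb.

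The peaks come from chromatin immunoprecipitation with an anti-FLAG antibody in WT mouse LSK cells, the lineage-negative, Sca-1+ c-Kit+ fraction of hematopoietic stem and progenitor cells. One arm, labelled FLAG-HLF, received a retrovirus given as pMX-3xFLAG-Hlf/Hlf-IRES-GFP, which carries tagged Hlf, and the other, labelled GFP-ctrl, received the pMX-GFP control virus. Both arms began with 80000 cells and were kept for 5 days in medium with SCF, IL-7, Flt3L and IL-3, and each gave 1 library. The tagged protein was driven by a virus, so the peaks are those of introduced HLF in cultured cells. A peak list of the GFP-ctrl arm was not analysed here, so no value below compares the arms, and no marker of the cultured cells was measured. Peaks of a single list do not replicate the experiment. No column gives read counts or peak heights, so depth is unknown, and the intervals below are exact 95% intervals for counting error only.

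HLF, hepatic leukemia factor, belongs to the PAR bZIP family of transcription factors, which bind as dimers to a short palindromic DNA site that DBP and TEF also recognise. In blood it is known as a factor of stem cells, whose level falls as cells take on a lineage. Binding far from genes is common among transcription factors, and many such sites are enhancers, which can act on a gene over a long distance and need not act on the nearest one. The nearest gene below is therefore a position, not a target.

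Although these peaks lie away from coding genes, some touched the starts of long noncoding RNAs (lncRNAs), and there part of the DNA under the peak can be shown. Of the 440 peaks, 12 (2.73%) overlapped 1 or more RefSeq promoter windows, which run from 250 bases before to 50 bases after a transcription start, against 187 of the 2713 other peaks (6.89%). The rule keeps these peaks over 20 kb from coding gene starts. The lower share and the lack of coding windows were therefore largely set by the rule. All 13 windows of the distal intergenic peaks belonged to lncRNAs. In 7 of them the overlap was 190 bases or longer, and 6 of these stretches are shown. Each stretch holds only the part of the peak inside the promoter window, so the rest of the peak was not searched. At Gm41309 the stretch stops short of the peak centre. All the stretches come from lncRNA starts, so they need not represent the other distal intergenic peaks. They are RefSeq sequence of GRCm38.p6, written from 5′ to 3′ on the strand of the lncRNA, in lower case. Capitals mark any match, on either strand, to TTACGTAA or TTATGTAA (the PAR bZIP site), TTGCGCAA, TTGCATAA or TTGCACAA (C/EBP sites), GAGGAAGT (a PU.1 site), TGTGGTTT (a RUNX site), TGAGTCA (AP-1), TGACGTCA (CRE) or CACGTG (an E-box). No marked match overlapped another.
Gm35941 (chr9:63780702-63780940, minus strand, in the peak 22.7 kb from Smad3): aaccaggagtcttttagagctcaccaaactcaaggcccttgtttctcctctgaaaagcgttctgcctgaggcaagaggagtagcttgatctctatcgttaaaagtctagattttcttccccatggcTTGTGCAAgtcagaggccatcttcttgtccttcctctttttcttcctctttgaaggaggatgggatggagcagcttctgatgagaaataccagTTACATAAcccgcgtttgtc
Ptgs2os2 (chr1:150164899-150165198, minus strand, in the peak 56.8 kb from Ptgs2): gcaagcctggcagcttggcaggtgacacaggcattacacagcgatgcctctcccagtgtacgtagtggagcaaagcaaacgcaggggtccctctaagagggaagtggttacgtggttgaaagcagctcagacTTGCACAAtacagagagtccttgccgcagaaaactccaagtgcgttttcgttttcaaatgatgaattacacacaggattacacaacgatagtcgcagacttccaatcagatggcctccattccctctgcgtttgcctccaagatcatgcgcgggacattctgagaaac
5930430L01Rik (chr5:148995165-148995464, minus strand, in the peak 51.4 kb from Hmgb1): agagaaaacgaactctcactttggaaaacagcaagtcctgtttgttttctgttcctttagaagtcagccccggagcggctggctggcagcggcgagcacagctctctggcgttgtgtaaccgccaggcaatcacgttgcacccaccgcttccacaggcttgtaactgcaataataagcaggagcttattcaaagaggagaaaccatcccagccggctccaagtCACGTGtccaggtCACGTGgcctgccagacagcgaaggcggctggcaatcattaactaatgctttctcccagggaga
4930573C15Rik (chr5:146703686-146703886, plus strand, in the peak 30.9 kb from Usp12): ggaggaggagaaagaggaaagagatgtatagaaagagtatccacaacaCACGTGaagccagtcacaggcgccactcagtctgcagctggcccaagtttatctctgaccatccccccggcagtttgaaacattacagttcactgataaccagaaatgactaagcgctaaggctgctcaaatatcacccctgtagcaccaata
Gm51814 (chr10:19062529-19062828, plus strand, in the peak 47.3 kb from Tnfaip3): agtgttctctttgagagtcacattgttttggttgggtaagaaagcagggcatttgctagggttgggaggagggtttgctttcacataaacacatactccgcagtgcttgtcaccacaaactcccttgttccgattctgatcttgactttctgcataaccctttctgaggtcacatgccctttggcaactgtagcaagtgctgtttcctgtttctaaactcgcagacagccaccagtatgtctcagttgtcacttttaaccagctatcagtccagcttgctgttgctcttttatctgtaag
Gm41309 (chr15:38602340-38602536, minus strand, in the peak 59.4 kb from Atp6v1c1): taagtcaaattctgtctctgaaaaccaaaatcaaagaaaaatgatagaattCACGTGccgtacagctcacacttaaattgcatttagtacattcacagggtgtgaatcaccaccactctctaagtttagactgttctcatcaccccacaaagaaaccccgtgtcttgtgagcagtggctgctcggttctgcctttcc

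The PAR bZIP site occurred once in these stretches, at Gm35941 near Smad3, which encodes a transcription factor of the TGF-beta pathway. Read on the lncRNA strand the match is TTACATAA, the reverse complement of TTATGTAA, at chr9:63780714-63780721, and it lay 23 bases from the centre of the peak. The start of Gm35941 itself lay 11 bases from that centre. The same stretch also held a C/EBP site, and so did the stretch at Ptgs2os2, a lncRNA beside the gene of the inducible cyclooxygenase. E-boxes, the sites of bHLH factors, stood in 5930430L01Rik, which had a pair of them, and once each in 4930573C15Rik and Gm41309. The stretch at Gm51814 held none of the searched letters, nor did the stretch that is not shown, so 2 of the 7 had no match. The next counts take whole windows of 300 bases, including any part outside the peak, and the overlap was as short as 3 bases at Gm34574. They are therefore not shares of DNA under the peaks. Across these windows, the PAR bZIP site was present in 1 of the 13 windows overlapped by a distal intergenic peak (7.69%, interval 0.195 to 36.0%). It was present in 14 of the 214 windows overlapped by other peaks (6.54%, 3.62 to 10.7%) and in 347 of all 32851 RefSeq windows (1.06%). With 13 windows, the share at distal intergenic peaks cannot be told apart from either value. A C/EBP site stood in 2 of the 13 windows (interval 1.92 to 45.4%), 31 of the 214 (14.5%) and 1.91% of all windows. An E-box stood in 3 of the 13 (5.04 to 53.8%), 22 of the 214 (10.3%) and 7.15% of all windows. The E-box interval holds both other values. The C/EBP interval holds the value of the other peaks and begins next to that of all windows. It rests on 2 windows, and the difference was not tested. The PU.1, RUNX, AP-1 and CRE letters were in none of the 13 windows (interval 0 to 24.7% for each). They were in 3.2%, 1.78%, 5.2% and 1.79% of all windows. In the windows overlapped by other peaks the shares were 5.14%, 4.67%, 3.74% and 3.74%. The interval holds each of these values, so no absence was shown with 13 windows. The 354 promoter windows of coding genes that are nearest to a distal intergenic peak held the site in 2 cases (0.565%, 0.0685 to 2.03%), with 286 of those 384 genes present in the promoter table.

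Over all gaps pooled, the density of distal intergenic peaks was lower farther from genes, and it was lower in long gaps than in short ones. The distal intergenic space made up 438.8 Mb of the 2600 Mb between the first and last coding genes of the chromosomes. It held 439 of the 440 peaks, the remaining 1 lying past the last coding gene of chromosome 5, Rfc3. Those 439 were 13.9% of the list (12.7 to 15.2%) against 16.9% of the span, a ratio of 0.825 (two-sided exact binomial p = 6.88e-06). The density was 1.00 peak per Mb (0.909 to 1.10), against 2.06 per Mb (1.92 to 2.21) in intergenic space at most 20 kb from a gene end and 0.215 per Mb (0.183 to 0.252) beyond 100 kb. Coding genes themselves held 1.69 peaks per Mb (1.61 to 1.77). These tests take peaks as independent, although some lie close together, and chromatin accessibility was not measured. The size of the ratio of 0.825 depended on the limits of the rule. It was 0.928 with an inner limit of 10 kb and 0.663 with an outer limit of 200 kb. When every RefSeq gene, noncoding ones included, entered the rule, the ratio was 0.336.

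The distance of the 440 peaks from the nearest coding gene end ran from 20.01 to 99.7 kb, with a median of 40.4 kb and quartiles of 28.9 and 59.2 kb. In steps of 10 kb, the density began at 1.20 peaks per Mb (119 peaks, 20 to 30 kb), 1.30 and 1.02, which brings the distance to 50 kb. The next 3 bins had 1.05, 0.918 and 0.608 per Mb, and the last 2, which end at 100 kb, had 0.623 and 0.559 (22 and 18 peaks). The nearer bins were the denser ones, and the intervals of the first and last bins, 0.997 to 1.44 and 0.331 to 0.883 per Mb, did not overlap. Of the 439 peaks, 280 (63.8%, 59.1 to 68.3%) lay at 20 to 50 kb, against 53.7% of the distal intergenic span, a ratio of 1.19 (two-sided exact binomial p = 2.39e-05). At the limits of the rule, the members nearest to 20 kb lay 20.01 kb from Chd7, 20.08 kb from Actr2 and 20.1 kb from Klk13. Just short of that limit, peaks lay 19.9 kb from Arhgap40, 19.8 kb from Mrps33 and 19.8 kb from Atp8b4. The outermost members lay 99.7 kb from Tcl1, 98.5 kb from Thbs1 and 97.1 kb from Ahi1, and the first peaks beyond were 100.3, 100.6 and 100.8 kb from a gene end.

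Density also differed with the size of the gap between the flanking coding genes. The gaps holding a distal intergenic peak had a median length of 154.7 kb, taken over peaks, with quartiles of 97.6 and 247.2 kb. Gaps of at most 100 kb held 115 of the 439 peaks (26.2%, 22.1 to 30.6%) against 15.9% of the distal intergenic span, a ratio of 1.65 (two-sided exact binomial p = 3.15e-08). In these the density was 1.65 peaks per Mb (1.36 to 1.98). It was 1.39 (1.19 to 1.61) in gaps of 100 to 200 kb and 0.772 (0.634 to 0.932) in gaps of 200 to 500 kb. In gaps over 500 kb it was 0.420 (0.305 to 0.564).

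Split by distance within a class of gap, the intervals of the 2 densities overlapped in each class. In gaps of 100 to 200 kb there were 1.33 peaks per Mb (1.08 to 1.62) at 20 to 50 kb from a gene end and 1.48 (1.16 to 1.86) at 50 to 100 kb. In gaps of 200 to 500 kb the values were 0.831 (0.604 to 1.12) and 0.737 (0.569 to 0.939), and in gaps over 500 kb they were 0.585 (0.371 to 0.878) and 0.321 (0.198 to 0.490). The share of peaks at 20 to 50 kb did not pass the test in any of these 3 classes, a comparison chosen after the data were seen (exact binomial adjusted p = 0.553, 0.553 and 0.181, with ratios to the span of 0.956, 1.08 and 1.39). The pooled excess at 20 to 50 kb was therefore not shown within gaps of like size, although in the longest gaps the nearer part had the higher value. Gaps of at most 100 kb have no part beyond 50 kb and could not be split.

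**Figure D1:**
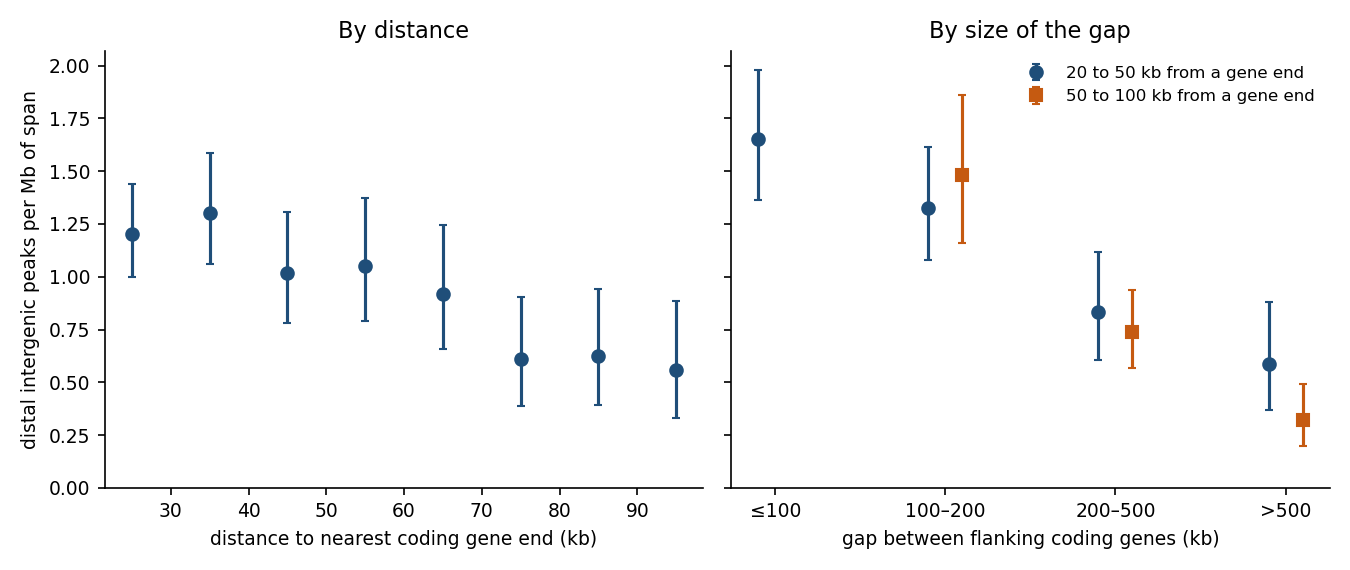
Density of distal intergenic FLAG-HLF peaks, in peaks per Mb of distal intergenic span, by distance to the nearest coding gene end in steps of 10 kb (left) and by the length of the gap between the flanking coding genes (right, circles for 20 to 50 kb and squares for 50 to 100 kb from a gene end). Bars are exact 95% Poisson intervals. The density is 1.65 per Mb in gaps of at most 100 kb and 0.585 (circle) and 0.321 (square) in gaps over 500 kb, and the intervals of circle and square overlap in each of the 3 classes that have both.

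Distal intergenic peaks were found on all 19 autosomes and on X, but unevenly. Chromosome 8 had 7 peaks where 19.9 were expected from its share of the distal intergenic span, a ratio of 0.352 (exact binomial adjusted p = 0.0122 over 20 chromosomes), and X had 6 where 41.8 were expected, a ratio of 0.144 (exact binomial adjusted p = 5.19e-11). On X the density was 0.144 peaks per Mb (0.0527 to 0.313) and on chromosome 8 it was 0.353 (0.142 to 0.726). Chromosome 10 had the highest value, 1.58 per Mb (1.10 to 2.20), which did not pass the threshold of 0.05 (exact binomial adjusted p = 0.0563). It passed with an inner limit of 10 or 30 kb and with an outer limit of 200 kb. The call for chromosome 8 held without X (ratio 0.323, exact binomial adjusted p = 0.00697). It was lost in the first 1576 of the 3153 lines of the file and with all RefSeq genes in the rule, and no label explains the order of lines.

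Set against the other peaks, the low number on X was not shown to be particular to distal intergenic peaks. X held 1.36% of the distal intergenic peaks (6 of 440) and 0.700% of the other peaks (19 of 2713), with no difference shown by Fisher's exact test (adjusted p = 0.328 over 20 chromosomes). Chromosome 8 held 1.59% of the distal intergenic peaks and 4.98% of the others (7 and 135 peaks, Fisher's exact adjusted p = 0.00708). Chromosome 11 held 3.64% and 8.40% (16 and 228 peaks, Fisher's exact adjusted p = 0.00469). Its density over 16.1 Mb of distal intergenic span, 0.997 per Mb, was nevertheless close to that of all chromosomes. These comparisons with the other peaks were added after the data were seen.

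**Figure D2:**
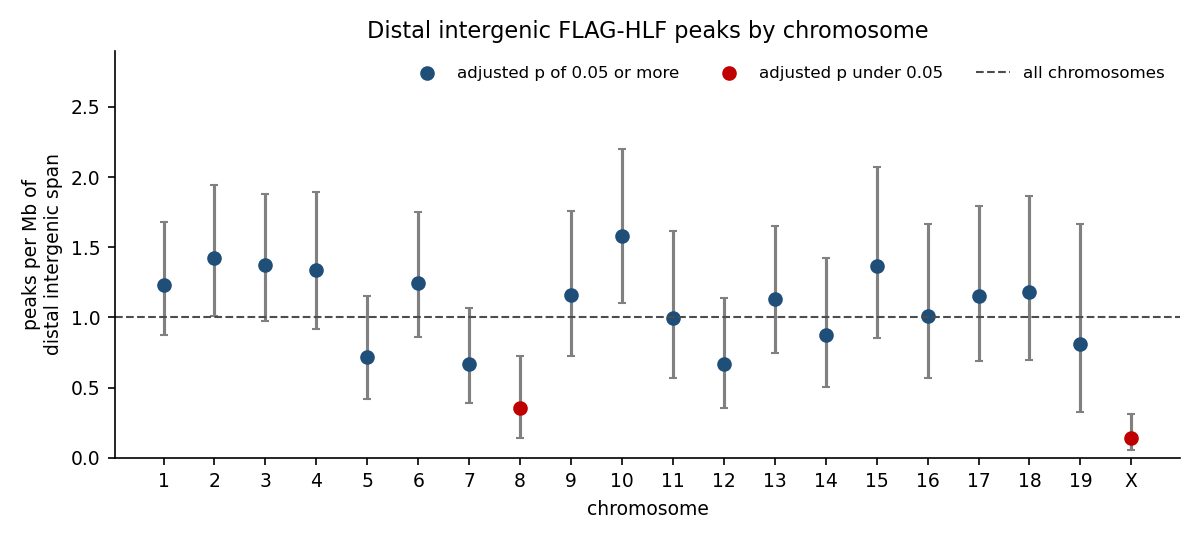
Distal intergenic FLAG-HLF peaks per Mb of distal intergenic span on each chromosome, with exact 95% Poisson intervals and a dashed line at the value over all chromosomes, 1.00 per Mb. Chromosome 8 (0.353 per Mb) and X (0.144 per Mb) are the points with an exact binomial adjusted p under 0.05.

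The peaks were spread over many genes, most of them with a single distal intergenic peak. There were 8745 coding genes that border distal intergenic space, and 384 of them (4.39%) were the nearest gene to a distal intergenic peak. Of these 384, 335 had 1 such peak, 43 had 2, 5 had 3 and 1 had 4. The 49 genes with 2 or more were 0.56% of the bordering genes. A peak inside the gene was also present at 47 of the 384 (12.2%), against 8.35% of all bordering genes (730 of 8745), a difference that was not tested.

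The gene with the most distal intergenic peaks was Mdm1, which encodes a microtubule-binding protein of centrioles, with 4. They stood in the gap of 295.6 kb between Rap1b, the gene of a small GTPase, and Mdm1, at 20.2, 37.9, 58.3 and 88.3 kb from Mdm1 (chr10:118121103-118121502, chr10:118103436-118103835, chr10:118083015-118083414 and chr10:118053089-118053488). The gap held 6 peaks in all, and the other two lay 15.1 and 107.2 kb from Rap1b. No peak lay inside Mdm1. Neighbouring centres among the 4 were 22.7 kb apart on average, against 2.04 kb among the 3 peaks near Ly6e described next.

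The 5 genes with 3 distal intergenic peaks each were Ly6e, Phf14, Gclc, Sema4f and Tnfaip3. Ly6e, which encodes a surface protein of the LY6 family and is induced by interferon, had the densest group. Its peaks were centred 24.1, 26.0 and 28.2 kb from the gene, within 4.07 kb (chr15:74926670-74931143 from first to last), in the 73.3 kb gap to Ly6m, and all 3 lay inside the lncRNA Gm39556. LY6 genes are a cluster of related copies, and the sources used here do not say how reads with several matches were placed. Tnfaip3, the gene of A20, an inhibitor of NF-kB signalling, had peaks on both sides. One pair lay 57.4 and 59.2 kb from its stop, 1.84 kb apart (chr10:18943319-18943718 and chr10:18941475-18941874), and the third lay 47.3 kb from its start, at the start of the lncRNA Gm51814 whose sequence is shown above. Gclc, the catalytic subunit of the rate-limiting enzyme of glutathione synthesis, also had peaks on both sides, at 40.9 and 45.3 kb on one and 34.3 kb on the other.

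Phf14, which encodes a PHD finger protein, had its 3 peaks at 27.3, 63.9 and 68.6 kb on the side of Thsd7a. Sema4f, a semaphorin gene, had them at 39.8, 48.3 and 67.8 kb on the side of Hk2, the gene of a hexokinase, and the same gap had 1 more peak 2.22 kb from Sema4f. The next 4 genes by the same order were Chd7, a chromatin remodeller, with peaks at 20.01 and 59.4 kb, Slc25a17, a peroxisomal carrier, at 20.5 and 21.0 kb, Ddr1, a collagen receptor kinase, at 20.9 and 35.7 kb, and Slc38a2, an amino acid transporter, at 21.3 and 36.2 kb. Of these 10 genes only Chd7 had a peak inside it.

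Gaps were the other way to see groups of peaks. Of the 5797 gaps long enough to hold distal intergenic space, 364 (6.28%) had a distal intergenic peak. There were 301 with 1, 52 with 2, 10 with 3 and 1, between Rap1b and Mdm1, with 4. Between B4galt5, a galactosyltransferase gene, and Slc9a8, a sodium-proton exchanger gene, 3 distal intergenic peaks lay within 13.4 kb, at 26.1, 33.4 and 39.4 kb from B4galt5, with a further peak 2.23 kb from it. The first 2 were nearest to B4galt5 and the third to Slc9a8, at 33.0 kb.

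**Figure D3:**
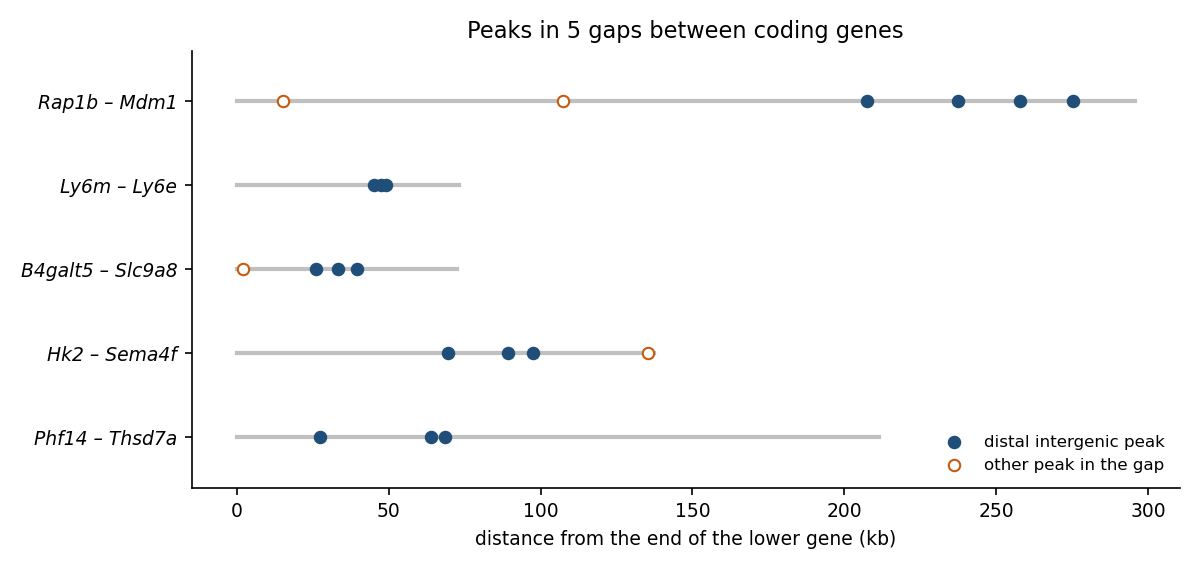
Positions of peaks in 5 of the gaps between coding genes that rank first by number of distal intergenic peaks and then by their spacing. Each grey line runs from the end of the lower-coordinate gene to the start of the higher one, in kb, with filled points for distal intergenic peaks and open points for other peaks of the same gap. The 3 peaks between Ly6m and Ly6e lie within 4.07 kb, and the 4 between Rap1b and Mdm1 all lie on the side of Mdm1.

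Close pairs were not shown to be more or less common among distal intergenic peaks than elsewhere. Another peak lay within 5 kb of 38 of the 440 (8.64%, 6.18 to 11.7%) and of 197 of the 2713 other peaks (7.26%), with no difference shown by Fisher's exact test (p = 0.327). For 37 of the 38 the nearest neighbour was itself a distal intergenic peak. The position rule makes this likely, since so near a neighbour mostly falls within the same distance limits. The median distance to the nearest other peak was 101.0 kb for distal intergenic peaks and 104.7 kb for the others. The closest pair lay near Slc25a17, with centres 525 bases apart (chr15:81297692-81298091 and chr15:81298217-81298616), so that 125 bases separated the intervals. Other close pairs lay near Cdk19, a kinase of the Mediator complex (608 bases), and Mfsd2a, a lipid transporter (986 bases). A further pair, 1468 bases apart, lay between Dusp1, a phosphatase gene of MAP kinases, and Ergic1.

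Some distal intergenic peaks lay inside a noncoding gene, so intergenic holds here for coding genes only. Noncoding RefSeq genes contained 101 of the 439 peak centres (23.0%, 19.1 to 27.2%), against 16.9% of the distal intergenic span, a ratio of 1.36 (two-sided exact binomial p = 0.00113). The call was lost in the first 1576 lines of the file, where the ratio was 1.22 (exact binomial p = 0.137). Of these peaks 96 lay in lncRNAs. The count takes every RefSeq gene not entered as protein-coding, so it includes 3 peaks in the antigen receptor loci Tcrg, Tcrb and Igl, described below. Of the 100 distinct genes counted, 8, these loci included, carried a name other than a Gm, Rik or LOC number. Lincred1, a lncRNA of 13.0 kb, held the peak 51.0 kb from Lmo2, the gene of a cofactor needed for blood formation (chr2:103906732-103907131). Wincr1 held the peak 81.2 kb from Mtap, a gene of purine and methionine salvage, and AU019990 the peak 21.0 kb from Gpcpd1. On X, 1 of the 6 peaks lay where Xist, the RNA of X inactivation, and its antisense partner Tsix overlap (chrX:103477696-103478095), 5.34 kb from the nearer end of Xist. No microRNA gene lay within 5 kb of a distal intergenic peak.

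Antigen receptor loci accounted for 3 of the peaks, since their gene segments are not entered as coding genes. One lay in the T cell receptor gamma locus (Tcrg, chr13:19195514-19195913), one in the T cell receptor beta locus (Tcrb, chr6:41262754-41263153) and one in the immunoglobulin lambda locus (Igl, chr16:19245727-19246126). Their nearest coding genes were Amph, Try4 and Olfr164, at 41.7, 39.3 and 39.9 kb. With the segments and these loci counted as coding genes, an alternative added after the data were seen, 13.8% of the list was distal intergenic.

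Genes of blood lineages, cytokine signalling and related lists were next taken from 12 lists, with 287 genes in all, of which 152 border distal intergenic space. Of these 152, 14 (9.21%) were nearest to a distal intergenic peak, against 4.39% of all bordering genes, and they had 16 peaks where their span would hold 9.02 at the mean density. The median distance of the closest peak was 53.0 kb for the 14 genes and 39.0 kb for all 384. The lists were chosen with earlier results of these data known, and no test was made on them.

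In the cytokine signalling list, 3 of 18 bordering genes had peaks, 5 in all where 0.997 would lie at the mean density. Cxcr4, whose product is the chemokine receptor for marrow retention, was nearest to 2, at 23.0 and 50.1 kb from its start (chr1:128615132-128615531 and chr1:128642213-128642612), in a gap of 680.9 kb. Ifngr1, which encodes part of the receptor for interferon gamma, had 2 on the side of its start, 32.0 and 85.2 kb away (chr10:19559764-19560163 and chr10:19506505-19506904). Ptpn11, which encodes a tyrosine phosphatase of receptor signalling, had 1 at 51.8 kb from its stop (chr5:121078537-121078936), on line 3 of the file.

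Among stem and multipotent progenitor genes, 3 of 25 that border distal intergenic space had a peak, 1 each. The span of this list would hold 1.77 peaks at the mean density. Hhex, a homeobox factor of early progenitors, had its peak 26.4 kb from its stop and inside the lncRNA 1700122C19Rik (chr19:37466977-37467376). Lmo2 had the peak in Lincred1 given above, and Kit, the receptor of SCF and part of the LSK gate itself, had 1 at 74.3 kb from its stop (chr5:75730816-75731215).

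Lymphoid lists had single peaks. At the mean density, the span of the B lymphoid list would hold 0.819 peaks and that of the T and innate lymphoid list 1.05. Syk, whose kinase acts below the B cell receptor, had 1 at 55.2 kb (chr13:52703762-52704161), and Bcl6, a repressor of germinal centre B cells, had 1 at 87.8 kb (chr16:24076489-24076888), 2 of 13 bordering genes of the B lymphoid list. In the T and innate lymphoid list 2 of 15 had a peak. Notch2, a Notch receptor gene, had 1 at 21.9 kb from its start (chr3:97991444-97991843), and Gata3, a factor of T and innate lymphoid cells, had 1 at 54.3 kb from its stop (chr2:9802609-9803008).

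The remaining lists had 1 gene or none. Trib1, whose pseudokinase promotes the breakdown of C/EBP alpha, was the only one of 15 in the granulocyte and monocyte list, at 71.3 kb (chr15:59728197-59728596). Of the 14 listed genes with a distal intergenic peak, only Trib1 (3), Notch2 (2) and Syk (1) also had peaks inside the gene. Arntl, which encodes the clock activator that pairs with CLOCK, was the only one of 12 in the clock and PAR bZIP list, at 93.3 kb from its start (chr7:113084929-113085328). Bcl2, the anti-apoptotic gene, was 1 of 8 in the cell death list, at 20.4 kb from its stop (chr1:106517599-106517998). Ccnd2, a D-type cyclin gene, was 1 of 13 in the cell cycle list, at 84.6 kb (chr6:127236551-127236950). No distal intergenic peak was nearest to any of the 6 bordering genes of the erythroid and megakaryocyte list, the 15 of AP-1, NF-kB and ETS factors, the 13 neuronal genes or the 9 liver genes. At the mean density, the spans of these 4 lists would hold 0.421, 0.734, 0.824 and 0.154 peaks. Those of the granulocyte and monocyte, clock and PAR bZIP, cell death and cell cycle lists would hold 0.879, 0.631, 0.502 and 0.913.

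**Figure D4:**
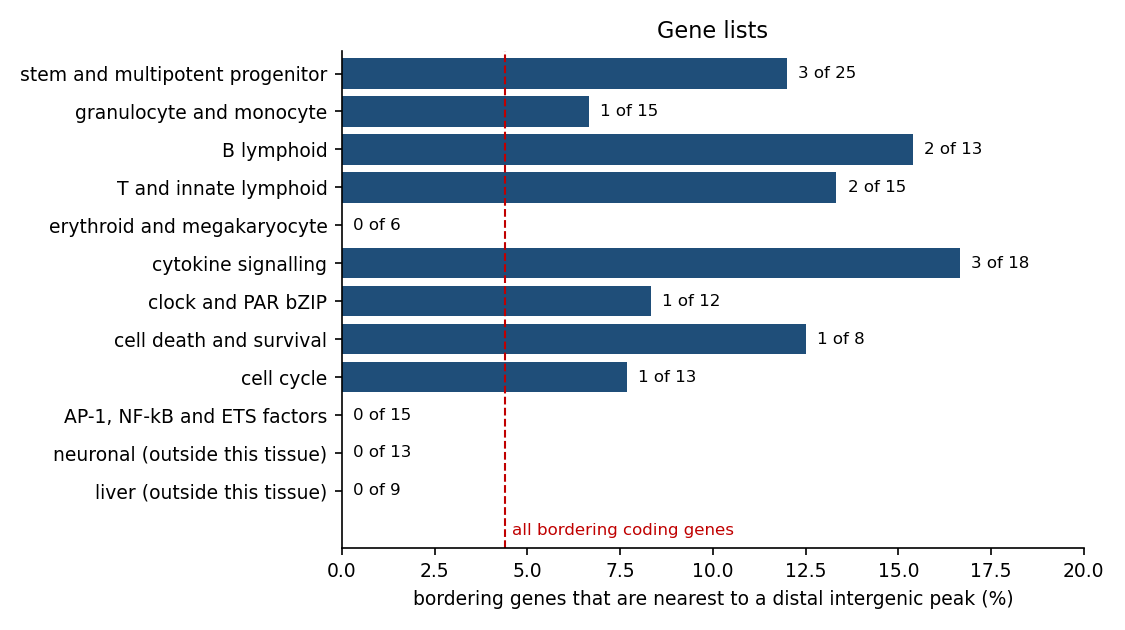
Share of the genes of each list that are nearest to a distal intergenic peak, in percent of the genes that border distal intergenic space, with both numbers beside each bar. The dashed line marks 4.39%, the share over all 8745 bordering coding genes, and the bars run from 0 to 16.7%.

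Among the 43 genes with 2 distal intergenic peaks, several others have known roles in blood cells. They were picked after their values were seen, and the share of the 43 with such roles was not counted, so no common theme is shown. Tet2, the dioxygenase that oxidises methylated cytosine, had peaks on both sides, 40.4 kb from its stop and 78.2 kb from its start (chr3:133423097-133423496 and chr3:133623153-133623552). S1pr1, a receptor that guides lymphocytes out of tissues, had them at 31.3 and 84.5 kb, also on opposite sides. Lyn, a kinase of the SRC family, had a pair 2.81 kb apart, at 26.3 and 29.1 kb (chr4:3651534-3651933 and chr4:3648723-3649122), and a peak inside the gene as well. Cd69, an early activation antigen of lymphocytes, had a pair 2.30 kb apart at 33.3 and 35.6 kb (chr6:129233839-129234238 and chr6:129231543-129231942).

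The share of distal intergenic peaks along the file was not shown to differ from that of the rest. The first 1576 lines held 234 of the 440 (53.2%, 48.4 to 57.9%) and 1342 of the 2713 other peaks (49.5%), with no difference shown by Fisher's exact test (p = 0.15). The first 315 lines held 43 of them (9.77%) and 272 of the others (10.03%, Fisher's exact p = 0.932).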

How the data were processed

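Anti-FLAG chromatin immunoprecipitation was sequenced from 1 library each of FLAG-HLF and GFP-ctrl cells, and the deposited FLAG-HLF peak list was analysed. It holds 3153 intervals, each 400 bases wide, with no header and no other column. Per the submitters' processing notes, the authors' tools were Bowtie2, bedtools and MACS2, with no role or version, on mm10 (GRCm38). The sources used here do not give the peak threshold, any use of the GFP-ctrl library as background or the step that set the width.

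Each centre was the interval start plus 200 bases. The annotation was RefSeq's for GRCm38.p6, 49997 genes of which 21900 are coding, with printed coordinates counted from 1. Strand came from the RefSeq promoter table and was missing for the nearest gene of 115 peaks, so 73.9% of the 440 had one, under the 80% needed, and a test of starts against stops is void and was not made. No genome was used, so the planned motif test over all peaks was replaced by the search of promoter windows.

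Shares were compared with the exact binomial test against the span, which on each chromosome lies between its outermost coding genes and includes unsequenced stretches, or with Fisher's exact test against all other peaks. Both were two-sided, with Benjamini-Hochberg adjustment over chromosomes. The binomial test was tested on simulated peaks placed independently of each other, which does not cover close peaks or uneven accessibility. Alternatives changed the distance limits, the gene set, the chromosomes, the lines, close peaks and the thresholds.

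The members, gene lists and tests were chosen with earlier results of these data known. Named genes were the 10 with the most distal intergenic peaks, up to 6 per list, those at the 6 leading gaps and the 6 closest pairs, named noncoding genes with a peak, and peaks at the limits. Some items that this rule names are not reported here. Software was scipy 1.17.1, pandas 2.3.3, numpy 2.4.6 and matplotlib 3.10.9 under Python 3.11.15.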

Additional observations from a re-analysis of the deposited data

How the results depend on the processing

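Across 8 results, 63 alternative values were computed, and 56 stayed on the same side of 1 and of the threshold or, for counts, within 1.5 times, which does not mean that the same chromosomes were called. The ratio of distal intergenic peaks to their span ran from 0.336 to 0.928, that of peaks at 20 to 50 kb from 1.16 to 1.48, and that of peaks in short gaps from 1.48 to 2.33. The excess inside noncoding genes ran from 1.22 to 1.58 and missed the threshold at 1.22, in the first 1576 lines. The ratio of close pairs to the other peaks, which passed no test, turned to 0.842 with all RefSeq genes in the rule and to 0.911 with an inner limit of 30 kb. The ratio for the first 1576 lines, 1.08, turned to 0.975 for the first 315. The number of chromosomes past the threshold, 2, was 1 without X (chromosome 8), 1 in the first 1576 lines (X) and 4 with an outer limit of 200 kb (chromosomes 2, 8, 10 and X). With all RefSeq genes in the rule the 2 were chromosome 1 and X, and with an inner limit of 10 or 30 kb chromosome 10 joined 8 and X. The cause of these changes was not tested. Listed genes with a peak were 18 in place of 14 when both flanking genes counted.

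Counting close peaks as 1 was not run for close pairs, where no pair is left, and the motif alternatives were not run without a genome. No paired analysis was possible because only 1 library has a peak list here. Without read counts, no limit of detection can be given.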
